A study of Mus musculus with 12 samples.

Results

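A set of 8 genes was examined by name in sorted PDGFRα+ mesenchymal cells of muscle and bone from Esr1 knockout and control mice. They are the metallothionein genes Mt1 and Mt2 and 6 genes known to be induced by glucocorticoids, Tsc22d3, Fkbp5, Per1, Zbtb16, Klf9 and Sgk1. All 8 were found among the 25655 genes of each tissue's table. They were chosen by name, as genes of known function, with earlier results of these data known. PDGFRα is a receptor of platelet-derived growth factor found on connective tissue progenitors, and Esr1 encodes estrogen receptor alpha.

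The series holds 12 samples in 4 groups of 3, profiled by 3′ mRNA sequencing. The muscle_ko and bone_ko groups were labelled PDGFRα-CreER with 2 floxed Esr1 alleles, so the Cre was driven from the gene of the sorting marker and can act only in cells that use that promoter. In muscle_con, replicates 1 and 2 carried PDGFRα-CreER alone and replicate 3 carried it with 1 floxed Esr1 allele. In bone_con, replicate 1 had no Cre but 2 floxed Esr1 alleles, and replicates 2 and 3 carried PDGFRα-CreER alone. Cells of both tissues were sorted as PDGFRα+ and negative for the leukocyte marker CD45 and the endothelial marker CD31, with Vcam1 as a further negative marker in muscle. CreER is a form of Cre recombinase that tamoxifen switches on. The series title names female mice, and the labels give neither age nor the tamoxifen schedule. The question put by the series was which genes Esr1 controls in muscle PDGFRα+ cells.

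Each tissue's table holds the authors' knockout against control comparison. The values used here are a log2 fold change (knockout over control), a p, an FDR and the larger group mean, which is the knockout mean or the control mean of a gene, whichever is higher. The header names no unit for it, and whether it was divided by gene length is not stated. Single libraries could not be tied to groups, so there are no values per sample, and neither depth nor the spread between replicates is given here. The labels do not say whether the replicates came from separate animals, so part of the spread behind the p-values may be technical. As a guide to precision, a standard error and a 95% interval were worked out from each log2 fold change and its p, on the assumption of a normal test. They are called implied below.

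Glucocorticoids enter cells and bind the glucocorticoid receptor, the product of Nr3c1, which is held by Hsp90 and its co-chaperones and moves to the nucleus to bind DNA at glucocorticoid response elements. Metallothioneins are small cysteine-rich proteins that bind zinc, copper and cadmium. Their genes are induced by metals through the factor Mtf1, which binds metal response elements, and also by glucocorticoids. In mesenchymal cells glucocorticoids restrain inflammatory genes and affect bone formation.

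The promoter sequences below are shown because the 2 metallothionein genes carry several copies of one motif and 1 of the other genes carries a complete glucocorticoid response element. The RefSeq promoter table (GRCm38.p6) held 15 promoters of 7 of the 8 genes, each running from 250 bases before a transcription start to 50 bases from it on. Zbtb16 had no entry. Both strands were searched for the glucocorticoid hexamer AGAACA and for the full glucocorticoid response element, a perfect inverted repeat of that hexamer with 3 bases of any kind between. They were also searched for the metal response element core written as TGCACNC or TGCGCNC. A hexamer lying inside a full element was counted under both. Capitals mark the metal response element core in Mt1 (chr8:94178839-94179138, plus strand) and Mt2 (chr8:94172368-94172667, plus strand). In the promoter of Sgk1 shown (chr10:21993640-21993939, plus strand), the fifth of its 6 starts and chosen because it holds the full element, they mark the glucocorticoid motifs.
Mt1: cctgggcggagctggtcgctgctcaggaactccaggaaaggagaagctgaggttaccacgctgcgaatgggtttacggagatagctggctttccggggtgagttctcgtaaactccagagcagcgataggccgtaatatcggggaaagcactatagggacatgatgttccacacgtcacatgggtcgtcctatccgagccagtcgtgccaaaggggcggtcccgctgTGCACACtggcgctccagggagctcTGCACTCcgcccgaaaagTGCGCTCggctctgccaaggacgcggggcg
Mt2: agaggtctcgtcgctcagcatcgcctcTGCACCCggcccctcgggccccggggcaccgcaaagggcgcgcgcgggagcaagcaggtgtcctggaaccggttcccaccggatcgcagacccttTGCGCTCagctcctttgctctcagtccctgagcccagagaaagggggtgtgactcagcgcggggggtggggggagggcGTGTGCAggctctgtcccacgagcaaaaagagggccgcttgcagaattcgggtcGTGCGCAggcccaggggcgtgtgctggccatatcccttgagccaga
Sgk1: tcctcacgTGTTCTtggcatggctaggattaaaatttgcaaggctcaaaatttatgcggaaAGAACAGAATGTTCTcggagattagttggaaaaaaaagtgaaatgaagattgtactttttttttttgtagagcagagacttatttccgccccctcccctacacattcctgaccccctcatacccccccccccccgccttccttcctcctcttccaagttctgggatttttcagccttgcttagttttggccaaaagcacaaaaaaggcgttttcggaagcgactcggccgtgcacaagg

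The Mt1 promoter held 3 matches to the metal response element core, which began at -23, 3 and 21 from the start. The Mt2 promoter held 4, which began at -223, -128, -50 and 5. These positions are counted from the RefSeq start. The GENCODE gene of Mt2 printed below begins further downstream, at 94172664, near the end of this window (94172667), so all 4 matches lie before it. Among 32544 different promoter sequences of the same length, 1.99% held at least 3 matches and 0.522% held at least 4. Neither metallothionein promoter held the glucocorticoid hexamer within this window. Of the 13 promoters of the other 5 genes, 2 held 1 metal core each, at Per1 and Sgk1, where 25.9% of all promoter sequences held at least 1.

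The full glucocorticoid response element was found in 1 of the 15 promoters, that of Sgk1 shown above, from -189 to -175. Only 0.00922% of all promoter sequences held it in this strict spelling, at 3 genes. The hexamer alone was found in 4 of the 15, once at Tsc22d3 and at 3 starts of Sgk1, against 18.9% of all promoter sequences. These matches describe the letters in short windows and are not evidence of binding. Promoters of Fkbp5 and Klf9 held none of the motifs searched, from which nothing follows about sites further away.

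**Figure D1:**
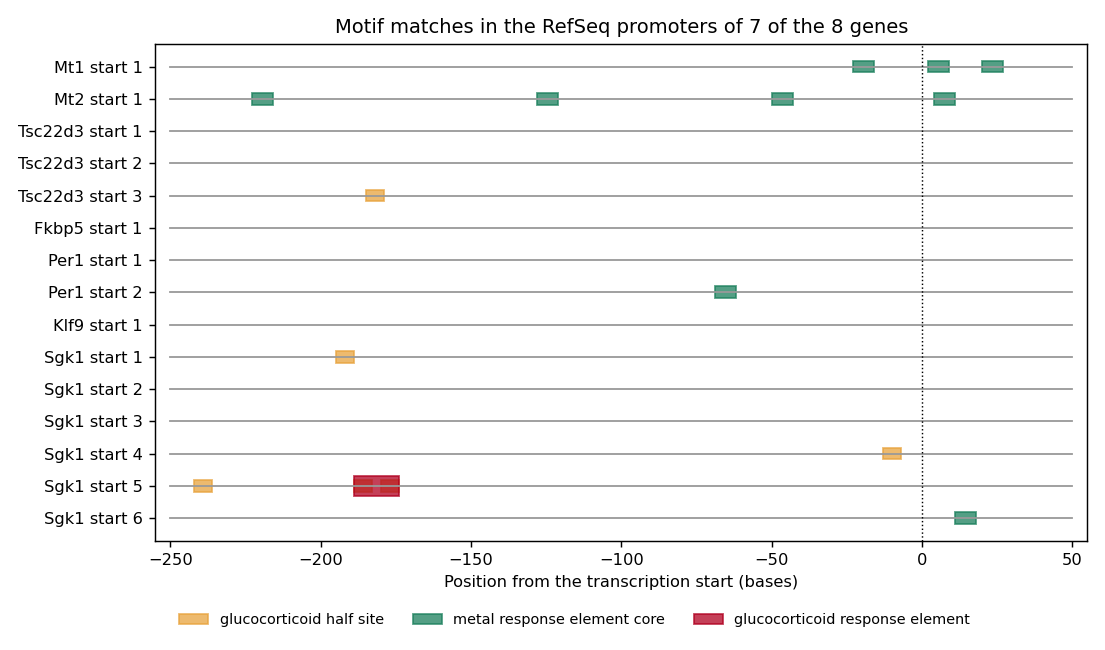
Motif matches in the 15 RefSeq promoters of 7 of the 8 genes, 1 row per transcription start, drawn by position in bases from that start (dotted line). Boxes are the glucocorticoid hexamer (orange), the metal response element core (green) and the full glucocorticoid response element (red). Mt1 has 3 and Mt2 has 4 green boxes, and the red box lies only at Sgk1 start 5.

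For Esr1, the targeted gene, the authors' deposited table listed log2 values (knockout over control) of 1.02 in muscle and -2.69 in bone (p = 0.404 and 0.245). The sources used here give neither the deleted part of the gene nor the place of its 3′ reads, so these values do not check the labels. Markers of the sorted cells and of other cells were read in the same tables. In muscle, 11 of 12 mesenchymal markers had a positive value (median 0.62) and 1 passed, Col1a2, at 1.27 in the authors' deposited table (FDR = 0.00261). Of the 6 erythroid genes with a p in muscle, 5 had a negative value (median -0.82). Over all muscle genes with a p, 46.5% were negative (median 0.12), and 0.127% of those with an FDR passed. The defining leukocyte gene Ptprc stood at 0.781 and the endothelial gene Pecam1 at 3.19 in the authors' deposited table for muscle, against 493.5 for Pdgfra. Vcam1, the further negative marker in muscle, stood at 53.7 there. The highest of the macrophage and pan-leukocyte genes in muscle was Lyz2 at 61.4, of a list sum of 97.0. The highest endothelial gene was Egfl7 at 16.8, of a list sum of 37.1. The authors' deposited table for bone listed Ptprc at 23.1 and Pecam1 at 0.304, against 8.60 for Pdgfra. Of 10 macrophage and pan-leukocyte genes in bone, 9 had a positive value (median 3.00), against 69.7% of all bone genes (median 2.51), and 0 passed. In bone, all 10 neutrophil genes had a positive value (median 3.37) and 1 passed, Ltf, at 7.45 in the authors' deposited table (FDR = 0.000229), where 69.7% of all bone genes with a p were positive (median 2.51) and 0.0352% of those with an FDR passed. Their larger group means summed to 12582 in bone, against 35.1 in muscle (tables that may have been normalized separately), and those of the erythroid list to 687588 in bone, against 3931 in muscle. The 4 globin genes held 58.4% of the sum of that column in bone, where Pdgfra, the gene of the sorting marker, stood at 8.60. The larger group mean of 6 of the 12 mesenchymal markers reached 50 in bone. The highest in the authors' deposited table were Cxcl12 at 1121 (rank 57), Col1a1 at 688.4, Dcn at 673.8 and Col3a1 at 506.9. Lower ones besides Pdgfra were Ly6a at 48.1, Pdgfrb at 33.8, Dpt at 18.7, Pi16 at 4.95 and Lepr at 1.70 in the authors' deposited table. Of the 12 mesenchymal markers in bone, 8 had a positive and 4 a negative value (median 0.44) and none passed. The part of these cells in the values of the 8 genes was not tested. In bulk samples, fewer cells of a type and less RNA per cell cannot be told apart.

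In muscle none of the 8 genes passed the authors' FDR of 0.05, of 8 with an FDR, where 0.127% of 7107 genes passed. No source used here names the tool behind the authors' test. At an unadjusted p under 0.05, 2 of the 8 were lower in the knockout (Mt2 and Tsc22d3) and 0 were higher, where 5.31% of 13158 genes were lower and 6.41% higher. In all, 6 of the 8 had a negative log2 fold change, against 46.5% of all genes. Their median was -0.59, against 0.12 for all genes with a p. Since the 8 genes and this direction were known before from these data, the counts describe the muscle table and are not independent evidence.

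The metallothionein genes were the most abundant of the 8 in muscle on the table's own scale. Mt2 (ENSMUSG00000031762, chromosome 8, 94172664 to 94173568 on GRCm38) had the top value of the authors' deposited table for muscle, a larger group mean of 32999. Mt1 (ENSMUSG00000031765, chromosome 8, 94179082 to 94180327) ranked 9 at 9263. The 2 genes lie on the same strand with 5513 bases between them. Together they held 3.67% of the sum of that column in muscle and 0.226% in bone, from tables that may have been normalized separately.

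In the authors' deposited table for muscle Mt2 had a log2 fold change of -0.70, 1.62-fold lower in the knockout (FDR = 0.584, p = 0.0202). Its implied standard error was 0.30, with an interval of -1.28 to -0.11. Mt1 had -0.48 in the authors' deposited table, 1.39-fold lower (FDR = 1.00, p = 0.122), with an implied interval of -1.08 to 0.13. Neither value passed after adjustment over the table. The aligned part of the Mt1 and Mt2 transcript ends, 164 bases, was 78.0% identical, below the 95% over 75 bases taken here as a shared end. The annotated gene Gm45774 runs on the opposite strand over the last 500 bases of Mt2, and whether the authors counted by strand is not stated.

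Among the glucocorticoid-induced genes, the 2 of smallest p in muscle were Tsc22d3 and Sgk1. Tsc22d3 (ENSMUSG00000031431, chromosome X, 140539528 to 140600659) encodes a leucine zipper protein that mediates anti-inflammatory effects of glucocorticoids. It had -1.47 in the authors' deposited table, 2.77-fold lower (FDR = 0.635, p = 0.0252). Its level was 139.6 as the larger group mean. Its implied interval ran from -2.76 to -0.18. Sgk1 (ENSMUSG00000019970, chromosome 10, 21882184 to 21999903) encodes a kinase that regulates ion channels and FOXO factors. It had -0.93 in the authors' deposited table, 1.91-fold lower (FDR = 0.910, p = 0.0708), at a larger group mean of 232.5, with an implied interval of -1.95 to 0.08.

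Klf9 was the most precisely measured of the 8 genes in muscle by implied error. Klf9 (ENSMUSG00000033863, chromosome 19, 23141226 to 23168134), a Krüppel-like transcription factor gene, had a larger group mean of 1298 and ranked 126 in the authors' deposited table. The authors' deposited table gave it a log2 fold change of -0.15 (FDR = 1.00, p = 0.605). The implied standard error was 0.29 and the interval -0.71 to 0.41. A change of the size given for Tsc22d3 lies outside that interval. The difference between the 2 genes was not tested.

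The remaining 3 genes were low in muscle and their intervals were wide. Zbtb16 (ENSMUSG00000066687, chromosome 9, 48654297 to 48836222) encodes a zinc finger repressor. The authors' deposited table gave it -0.96 (FDR = 1.00, p = 0.494) at a larger group mean of 38.6. Per1 (ENSMUSG00000020893, chromosome 11, 69095217 to 69109960) encodes a repressor of the circadian clock and stood at 0.58 in the authors' deposited table (FDR = 1.00, p = 0.640) at 37.6. Fkbp5 (ENSMUSG00000024222, chromosome 17, 28399094 to 28517527) encodes an Hsp90 co-chaperone that lowers the receptor's affinity for hormone. Its value was 0.43 in the authors' deposited table (FDR = 1.00, p = 0.792) at 24.2. The implied standard errors of these 3 genes were 1.40, 1.25 and 1.62, larger than each fold change. Values of this size, of either sign, could not be told from 0 at this precision.

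**Figure D2:**
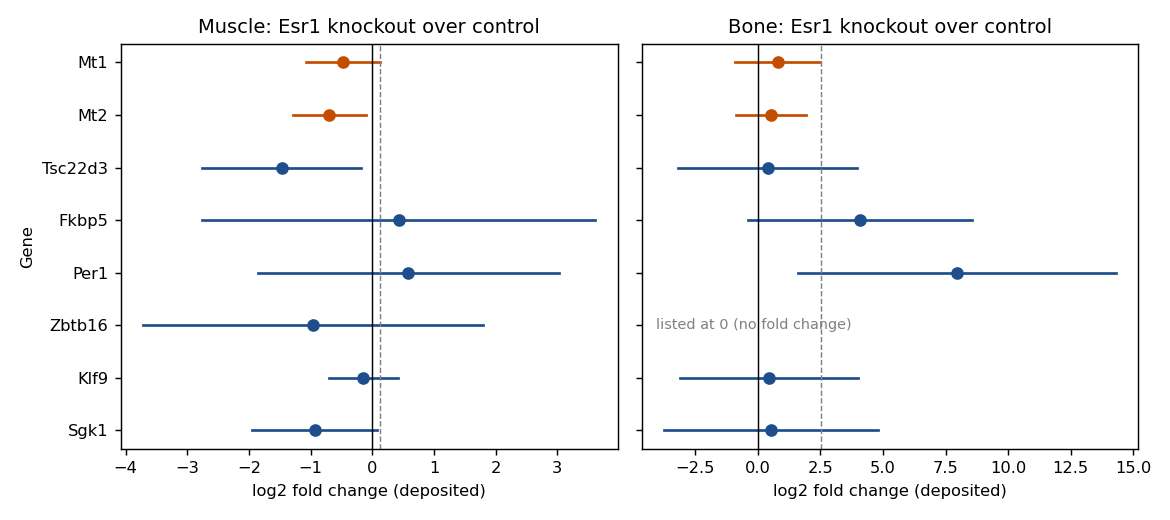
Deposited log2 fold change of each gene (points, knockout over control) with its implied 95% interval (lines) in muscle (left) and bone (right), on separate axes. The solid line marks 0 and the dashed line the median of all genes with a p. In muscle the intervals of Mt2 and Tsc22d3 lie below 0, and in bone that of Per1 lies above 0.

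In bone none of the 7 genes with an FDR passed 0.05 either, where 0.0352% of 8534 genes passed. At an unadjusted p under 0.05, 1 was higher in the knockout (Per1) and 0 were lower, where 28.8% of 10518 genes were higher and 4.20% lower. Zbtb16 was listed at 0 in the authors' deposited table for bone and had no fold change. All 7 of the others had a positive log2 fold change, against 69.7% of all genes, with a median of 0.53. The median of all bone genes was 2.51, and relative to it 5 of the 7 were negative, Fkbp5 and Per1 being the exceptions. That median is set by genes of low level. It was 4.99 for genes whose larger group mean was under 10 and 0.015 for those from 20 to 50. Each of the 7 lay above the median of its own range of level, as the ranges given below show, and this was not tested.

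Metallothionein genes were again the highest of the 8 in bone. Mt2 had a larger group mean of 2167 and ranked 28 in the authors' deposited table, and Mt1 had 481.6 and ranked 151. For Mt2 the authors' deposited table gave a log2 fold change of 0.53 (FDR = 0.691, p = 0.464). For Mt1 it gave 0.78 in the authors' deposited table (FDR = 0.584, p = 0.361). The implied interval was -0.88 to 1.94 for Mt2 and -0.90 to 2.47 for Mt1. Among the 145 bone genes whose larger group mean reached 500, the median was 0.23. From 100 to 500, where Mt1 lies, it was -0.03. The muscle and bone values of these genes had opposite signs as deposited. They had the same sign when centred on each table's median, with -1.73 for Mt1 and -1.99 for Mt2 in bone. The bone median used for centring is set by genes of low level, and both values lay above the median of their own range. The difference between tissues was not tested.

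Tsc22d3, Klf9 and Sgk1 differed from 0 by far less than their error in bone. The authors' deposited table gave Tsc22d3 0.39 (p = 0.832), Klf9 0.44 (p = 0.808) and Sgk1 0.53 (p = 0.807), at larger group means of 44.6, 53.1 and 31.4. Their implied standard errors were 1.83, 1.81 and 2.18. The implied interval of Tsc22d3 in bone, -3.20 to 3.97, includes its muscle value.

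Per1 and Fkbp5 had the largest positive values of the 8 genes in bone and the lowest levels of those measured. Per1 stood at 7.96 in the authors' deposited table (FDR = 0.0805, p = 0.0140), with a larger group mean of 7.01. At an FDR of 0.1 it would be called, where 28.1% of the 8534 bone genes were called higher and 32.2% in either direction. Fkbp5 stood at 4.08 in the authors' deposited table (FDR = 0.161, p = 0.0738) at 12.3. Dividing the larger group mean of Per1 by its fold of 248 leaves 0.0282, which could not be checked against single libraries, so the fold is given as the authors list it and not as an estimate of size. Such a quotient under 0.1, a limit chosen after the values were seen, was found for 1583 bone genes that were higher in the knockout, of 6608 with a p and a mean of 5 or more.

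In bone the share of genes with a positive value differed between ranges of level. Of 5455 genes whose larger group mean was under 10, 84.3% were higher in the knockout, with a median log2 fold change of 4.99. From 10 to 20 it was 68.6% of 1549 genes (median 2.19), and from 20 to 50 it was 50.4% of 1861 genes (median 0.015). The share was lowest from 50 to 100, at 38.3% of 915 genes (median -0.50). It was 48.4% of 593 genes from 100 to 500 (median -0.03) and 64.8% of the 145 genes at 500 or more (median 0.23). Per1 lies in the range under 10, Fkbp5 in that from 10 to 20, Mt1 in that from 100 to 500 and Mt2 in the top one.

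**Figure D3:**
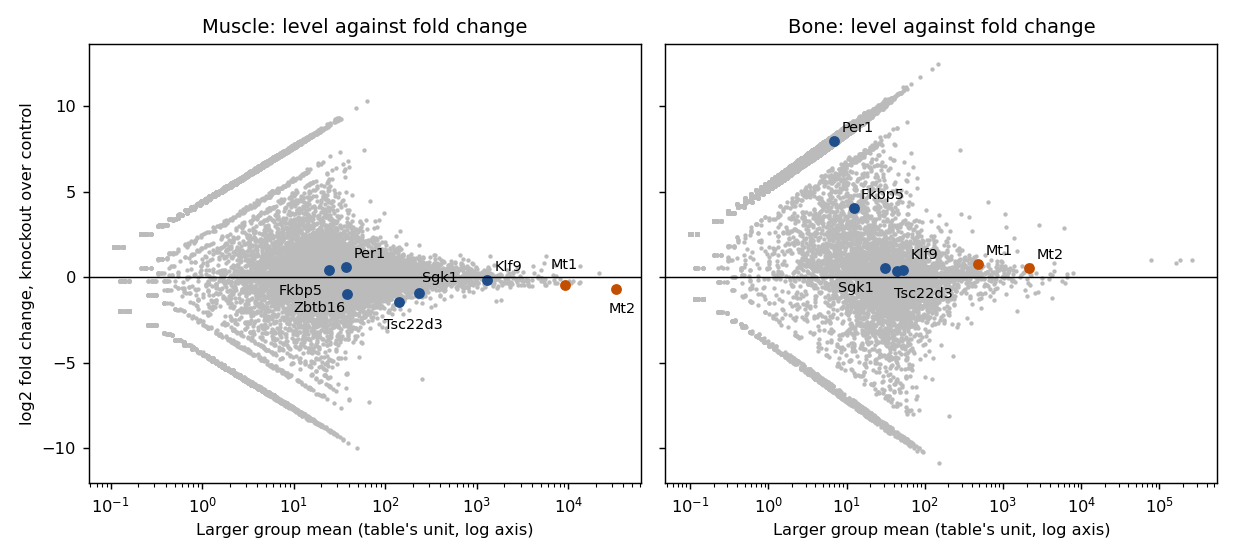
Larger group mean (log axis, in the table's unnamed unit) against deposited log2 fold change, knockout over control, for every gene with a p (grey) and for the 8 genes (orange for metallothioneins, blue for the others). Mt2 lies at the far right in muscle, at 32999, and Per1 lies on the dense upper edge in bone, at 7.01.

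No gene of the glucocorticoid receptor pathway list was called in either tissue. Of 12 genes with an FDR in muscle and 13 in bone, 0 passed in either direction, and at an unadjusted p under 0.05 there were 0 higher and 1 lower of 14 in muscle and 6 higher and 1 lower of 13 in bone. Over all genes with a p, as given above, these shares were 6.41% and 5.31% in muscle and 28.8% and 4.20% in bone. The median was -0.07 in muscle and 2.50 in bone, where that of all genes was 2.51, and it was 0.15 over the 4 bone genes whose larger group mean reached 50. Nr3c1, the receptor gene, stood at 0.97 in muscle cells in the authors' deposited table (FDR = 0.915, p = 0.0729) at 185.2. Nrip1, which encodes a corepressor of nuclear receptors, stood at -3.13 in the authors' deposited table (FDR = 0.232, p = 0.00216) at 104.1. Hsd11b2 encodes the enzyme that inactivates glucocorticoids and was near 0 in muscle, with a larger group mean of 0.600. In bone the authors' deposited table gave Hsd11b2 -9.45 (FDR = 0.0784, p = 0.00419) at 57.4, Ncoa1, a coactivator gene, 9.12 (FDR = 0.0784, p = 0.00554) at 16.5 and Nr3c1 8.87 (FDR = 0.0784, p = 0.00591) at 12.5. These bone values also leave quotients under 0.1, of 0.0823, 0.0296 and 0.0267.

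Other glucocorticoid-induced genes showed no called change. The 25 genes of this list with an FDR in muscle and the 23 in bone held 0 calls. At an unadjusted p under 0.05, 0 were higher and 1 lower of 29 in muscle, against 6.41% and 5.31% of all genes. In bone 4 were higher and 1 lower of 26, where 28.8% of all genes were higher and 4.20% lower. The median was -0.10 in muscle and 0.50 in bone. Klf15, a Krüppel-like factor gene, had -8.32 in muscle (p = 0.00778, no FDR) at 15.3 in the authors' deposited table, which leaves a quotient of 0.0477, so this fold is no estimate of size either. The authors' deposited table gave Cry2 at -1.35 (p = 0.0885) and Lpin1, a phosphatidate phosphatase gene, at 3.62 (p = 0.0893). Well-expressed inducible genes in muscle included Nfkbia, the NF-κB inhibitor gene, at -0.41 and Cebpd, a C/EBP factor gene, at -0.49 in the authors' deposited table (p = 0.147 and 0.136, larger group means 2403 and 1706); both were chosen after their values were seen. In bone Lcn2, which encodes lipocalin 2, had 3.68 in the authors' deposited table (FDR = 0.0784, p = 0.00261) at 288.0, and is also a neutrophil granule gene. Bcl6, a transcriptional repressor gene, had 9.13 and Angptl4, a lipase inhibitor gene, 7.36 there, at 15.3 and 3.57 (FDR = 0.0784 and 0.0911). The quotients of Bcl6 and Angptl4 were 0.0273 and 0.0217, so these 2 folds are no estimate of size.

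Zinc and metal handling genes gave no call either, with 15 genes holding an FDR in muscle and 16 in bone. At an unadjusted p under 0.05, 1 was higher and 0 lower of 19 in muscle, beside 6.41% and 5.31% of all muscle genes. In bone 4 were higher and 0 lower of 16, beside 28.8% and 4.20% of all bone genes. Slc39a13, a zinc importer gene, had 3.80 in muscle (FDR = 0.816) at 20.7 in the authors' deposited table, Slc30a4, a zinc exporter gene, -1.93 (p = 0.202) at 44.4, and Mt3, the brain-type metallothionein gene, -2.81 (p = 0.283) at 0.315. In bone the authors' deposited table gave 9.67 for Gclc, a glutathione synthesis gene (FDR = 0.0784). The authors' deposited table gave 9.15 for Slc30a1, the plasma membrane zinc exporter gene (FDR = 0.0784), at a larger group mean of 16.8. For Slc39a14, a zinc and iron importer gene, it was 7.80 in the authors' deposited table (FDR = 0.0822) at 5.44. The quotients of Gclc, Slc30a1 and Slc39a14 were 0.0271, 0.0295 and 0.0245, so their folds are no estimate of size. The list medians were -0.19 in muscle and 0.80 in bone. Mt4 was listed at 0 in both tables and Mt3 was listed at 0 in bone.

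The other 5 lists, of the circadian clock, of Krüppel-like factors and of relatives of Sgk1, Fkbp5 and Tsc22d3, held 0 called genes in both tissues. At an unadjusted p under 0.05, 2 clock genes were higher and 1 lower of 17 in muscle, beside 6.41% and 5.31% of all genes. In bone 2 clock genes were higher and 1 lower of 13, beside 28.8% and 4.20% of all bone genes. In muscle the other 4 lists held 1 such gene, Klf15, which was lower. In bone 5 of 10 FKBP relatives, 1 of 9 SGK and AKT relatives and 1 of 3 TSC22 relatives were higher, and 1 of 11 Krüppel-like factor genes, again Klf15, was lower. In muscle the authors' deposited table gave Cry1 8.48 (p = 0.00668), Tef -2.73 (p = 0.0395) and Ciart 6.63 (p = 0.0464), at larger group means of 17.6, 41.6 and 4.55. The quotients of Cry1 and Ciart were 0.0492 and 0.0460, and 442 muscle genes that were higher and 296 that were lower in the knockout had one under 0.1, of 9811 with a p and a mean of 5 or more. In bone Rora had -6.70, Clock 8.10 and Npas2 7.74 in the authors' deposited table (FDR = 0.0784, 0.0822 and 0.0852), at 40.4, 5.85 and 4.54. The quotients of Clock and Npas2 were 0.0213 and 0.0212, and that of Rora was 0.388. FKBP relatives had the highest median of the lists in bone, 5.35 over 10 genes, and the larger group mean of 1 of these genes reached 50. The median of all bone genes was 2.51, and that of bone genes under 10 was 4.99. The 3 FKBP relatives of smallest p in bone, Fkbp10, Fkbp8 and Fkbp3, left quotients of 0.0287, 0.0220 and 0.0305, so their folds are no estimate of size.

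Gene groups taken from the GO annotation in the tables, and chosen after the files were seen, gave the same count of 0 calls. Genes annotated with a response to glucocorticoid, corticosteroid or dexamethasone numbered 72 and included none of the 8. In muscle 58 had a p, with a median of -0.07, and in bone 38 had a p, with a median of 0.59. At an unadjusted p under 0.05, 2 were higher and 6 lower in muscle, against 6.41% and 5.31% of all genes (median 0.12). In bone 8 were higher and 2 lower, where 28.8% of all genes were higher and 4.20% lower (median 2.51). Genes annotated with a response to zinc, cadmium or copper ion numbered 78 and included Mt1 and Mt2. Of these, 53 had a p in muscle (median -0.20, 1 higher and 3 lower at an unadjusted p under 0.05) and 49 in bone (median 0.53, 8 higher and 2 lower). The shares and medians over all genes given for the glucocorticoid group also apply to the metal group.

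**Figure D4:**
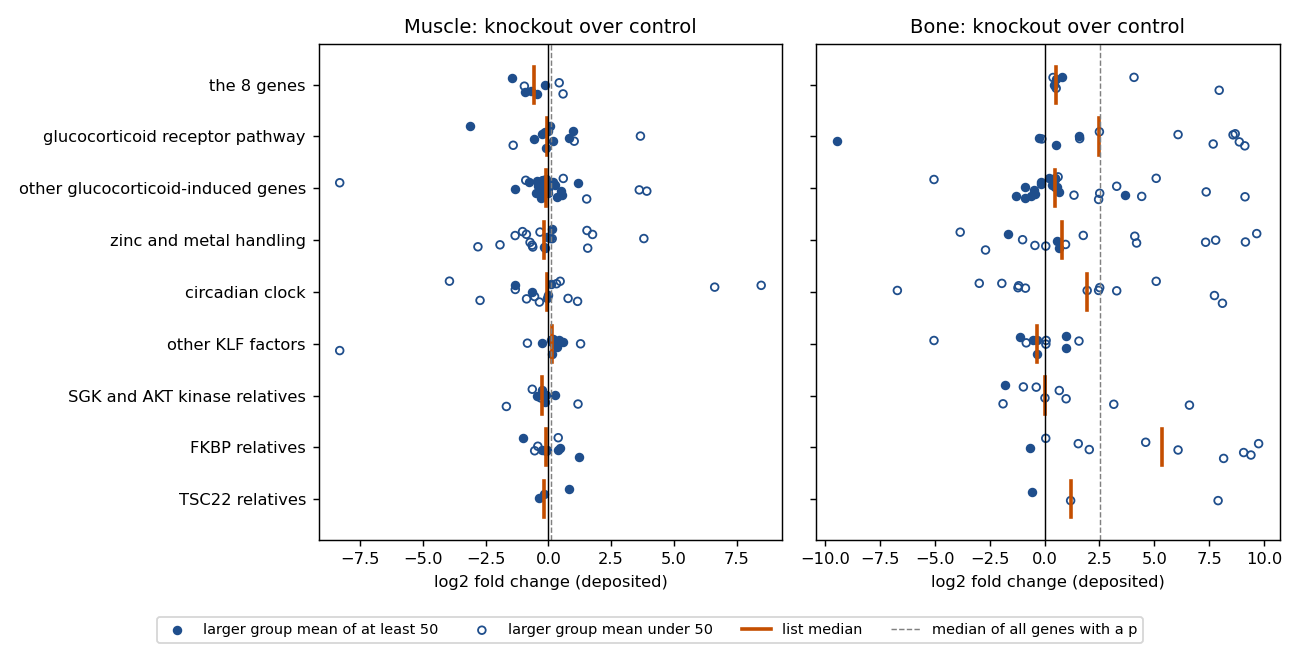
Deposited log2 fold changes (knockout over control) of the 8 genes and of the genes of 8 pathway lists, muscle left and bone right, on separate axes. Filled points have larger group means of 50 or more, open points lower ones, orange bars are list medians and the dashed line is the median of all genes with a p. The bone values above 5 are all open points.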

How the data were processed

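RNA came from a silica-column extraction, and QuantSeq, a library method that reads transcripts from their 3′ ends, was used, per the labels' protocols. The aligner, counter and test are named by no source used here. GRCm38 and mm10 are the builds in the submitters' processing notes, yet only 2.15% of 25587 genes matched by identifier had the same start and end in the tables as in GENCODE M21 (GRCm38), and none of the 8 genes did. Positions printed are therefore those of GENCODE M21 and RefSeq, and the tables' own positions were not used.

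The authors deposited log2 fold changes (knockout over control) and p-values, with FDR and Bonferroni p, per the file headers. The larger group mean is a score deposited without a unit, per the file headers. The deposited fold change is signed, so a score below -1 is lower in the knockout, and its size is printed. The 48 per-library columns have names that match no label and were not used. Planned edgeR fits on counts, and the search for genes of like pattern, therefore could not be run, and the authors' FDR under 0.05 was used. Recomputing it over the genes holding one differed by at most 0.000995 in muscle and 0.000142 in bone. The implied standard error is the size of the log2 fold change over the normal deviate of the two-sided p. Both calculations were tested on simulated data.

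The members and lists were chosen with earlier results of these data known. The 8 members were all named. Of each pathway list, genes past FDR 0.05 and up to 3 of smallest p in each tissue could be named, and genes outside this rule are marked or serve as checks. The 8 pathway lists hold 116 different genes. Lists were described by counts and medians, with no set test. BLAST found no member's transcript end (300 bases) shared with another gene at 95% identity over 75 bases. Python 3.11.15, pandas 2.3.3 and scipy 1.17.1 were used. Alternatives were an FDR of 0.1, adjustment over all genes with a p, Bonferroni p, genes whose larger group mean reached 50, and centring on the median of all genes.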

Additional observations from a re-analysis of the deposited data

How the results depend on the processing

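No paired analysis was possible because the columns of the tables carry no replicate number, and the fits that need single libraries (other size factors, no low-count filter, a left-out replicate) were not run for the same reason. None of the 8 genes in muscle or of the 7 with a p in bone passed under adjustment over all genes with a p or the Bonferroni p. Among genes whose larger group mean reached 50, none of the 5 members tested in muscle or of the 3 tested in bone passed. An FDR of 0.1 called 0 of them in muscle and 1 in bone, Per1 at 0.0805, where 28.1% of 8534 genes were called higher. It called 22 pathway genes in bone, where 32.2% of the 8534 genes passed. Of the genes with an FDR it called 7 of 13 in the receptor pathway, 3 of 23 other glucocorticoid-induced genes and 4 of 16 metal handling genes. It called 3 of 10 clock genes, 0 of 11 Krüppel-like factors and 0 of 9 SGK and AKT relatives. Calls were 5 of 9 for FKBP relatives and 1 of 3 for TSC22 relatives. Some genes are on more than 1 list. Over these alternatives the adjusted p in muscle ranged from 0.408 to 1 for Mt2 and from 0.415 to 1 for Tsc22d3.

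Centring on the median of all genes turned the bone median of the 8 genes to -1.98, and single bone values to -1.73 for Mt1, -1.99 for Mt2, -2.13 for Tsc22d3, -2.07 for Klf9 and -1.98 for Sgk1. It turned the bone list medians to -0.013 for the receptor pathway, -2.02 for other glucocorticoid-induced genes, -1.72 for metal handling, -0.57 for the clock, -2.49 for SGK and AKT relatives and -1.32 for TSC22 relatives. Among genes whose larger group mean reached 50, the bone medians were 0.15 for the receptor pathway (2.50 as deposited), -0.16 for other glucocorticoid-induced genes, -1.78 for SGK and AKT relatives, -0.67 for FKBP relatives and -0.56 for TSC22 relatives, the last 3 resting on 1 gene each. No muscle value turned. Centring uses a bone median set by genes of low level, as their larger group means show. Precision is limited by level: the median implied standard error was 0.30 for muscle genes of at least 500 and 2.58 for those under 10, and 0.65 and 3.08 for the same ranges in bone.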
